A study of Homo sapiens with 3 samples.

Results

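Of 10 long noncoding RNAs chosen by symbol (MALAT1, NEAT1, H19, TUG1, KCNQ1OT1, FIRRE, LINC00657, DANCR, LINC00152 and MIR22HG), 9 were found by name in each of 3 libraries, out of 51850 named loci matched across them. No row carried the name FIRRE, which was not analysed here. The libraries came from PLC cells, a human hepatoma line, 48 hours after they were infected with viruses carrying short hairpin RNAs, with 1 library per group. The shDIS3L2 library received hairpins against DIS3L2, a 3' to 5' exoribonuclease specific for uridylated RNA. The shHNRNPU library received hairpins against HNRNPU, the gene of hnRNP U, a protein that binds RNA in the nucleus, and its label is shhnRNP U. The control library is labelled NTC.

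Long noncoding RNAs are transcripts that act as RNA rather than as templates for protein. Some are held in the nucleus: MALAT1 gathers in nuclear speckles, bodies rich in splicing factors, and NEAT1 is the scaffold on which paraspeckles assemble. Others work in the cytoplasm, such as LINC00657, now called NORAD, which binds the Pumilio repressor proteins. hnRNP U tethers RNA to the nuclear scaffold and is a known binding partner of FIRRE. The mature 3' end of MALAT1 and that of the long form of NEAT1 are cut by RNase P and carry no poly(A) tail. Whether poly(A) selection was used for these libraries was not given in the sources used here.

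The sequences below were taken from RefSeq (GRCh38.p14) and GENCODE release 29, because the deposited tables hold none. LINC00152 (RefSeq symbol CYTOR, chromosome 2) and MIR4435-2HG, which RefSeq also lists as MIR4435-1HG, the name in the deposited tables, have start regions that share an unbroken stretch of 241 identical bases. That stretch runs from the first base shown for LINC00152 to the last shown for MIR4435-2HG, so its full length was not read. Both start regions are shown because reads of identical stretches can be assigned to either gene. Capitals mark TGAGTCA, the site bound by AP-1 factors, searched on both strands.
LINC00152, chr2:87455177-87455476, plus strand: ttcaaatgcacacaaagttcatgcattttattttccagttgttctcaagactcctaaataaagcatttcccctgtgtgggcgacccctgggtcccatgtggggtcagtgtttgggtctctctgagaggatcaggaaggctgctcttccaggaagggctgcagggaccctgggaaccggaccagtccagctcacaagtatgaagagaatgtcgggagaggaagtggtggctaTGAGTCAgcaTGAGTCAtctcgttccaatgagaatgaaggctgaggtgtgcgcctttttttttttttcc
MIR4435-2HG, chr2:111495112-111495411, minus strand: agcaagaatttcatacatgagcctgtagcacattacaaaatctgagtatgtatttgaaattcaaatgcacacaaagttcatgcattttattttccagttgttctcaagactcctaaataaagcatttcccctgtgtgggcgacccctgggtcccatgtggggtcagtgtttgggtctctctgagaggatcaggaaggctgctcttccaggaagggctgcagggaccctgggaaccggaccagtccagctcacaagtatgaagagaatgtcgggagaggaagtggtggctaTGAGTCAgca

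The LINC00152 window held TGAGTCA 2 times and the MIR4435-2HG window 1 time. The MIR4435-2HG window ends just before the place of the second LINC00152 site, so these counts do not show a difference in sites. Of 35116 promoter windows of the same length, 4.95% held it on either strand, and LINC00152 was the 1 member of the 7 with a window that did. CACGTG was found for LINC00657 and TUG1 (7.26% of all windows), and TGACGTCA for 0 of the 7 (1.85% of all windows). Over all annotated transcripts, 18.7% of the 31-base words of CYTOR also occurred in MIR4435-2HG. A match of letters describes the sequence and does not show binding.

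LINC00657 is known for repeated Pumilio sites. Its transcript of 5339 bases held TGTANATA, the Pumilio recognition element, 15 times on the sense strand, or 2.81 per kilobase. Of 283 long noncoding RNA genes with a transcript of at least 5000 bases, 2 reached that density, LINC00657 included, and the median was 0.0490 per kilobase. The other members held between 0 (MALAT1, H19, DANCR, LINC00152 and MIR22HG) and 9 of them (KCNQ1OT1, over 91667 bases). The first 3 sites, with the element in capitals, start at bases 761, 1140 and 1241 of the transcript.
LINC00657 site 1: tggaaggcctgTGTATATAatatgaaaaag
LINC00657 site 2: cctcactactgTGTATATAgttgacaatgc
LINC00657 site 3: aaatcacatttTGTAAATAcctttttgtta

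MIR22HG and H19, the members with the largest differences described below, are also host transcripts of microRNAs. The values below are of the host transcripts and say nothing of the mature microRNAs. The RefSeq sequences of the mature arms are shown with the seed, bases 2 to 8, in capitals. None of the 4 seeds is shared.
hsa-miR-22-3p, chr17:1713914-1713935, minus strand, in MIR22HG: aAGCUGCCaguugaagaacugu
hsa-miR-22-5p, chr17:1713952-1713973, minus strand, in MIR22HG: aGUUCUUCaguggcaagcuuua
hsa-miR-675-3p, chr11:1996768-1996787, minus strand, in H19: cUGUAUGCccucaccgcuca
hsa-miR-675-5p, chr11:1996800-1996822, minus strand, in H19: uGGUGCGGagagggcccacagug

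Values are FPKM, a fragment count scaled to transcript length and library depth, so that levels of different genes can be set side by side. A range after an FPKM is the deposited interval of that library's estimate, and it says nothing of the spread between cultures. A gene was past the size rule when the log2 ratio of FPKM plus 1 reached 1 in either direction with intervals apart in the pair of libraries. There were no replicates and no p-values. DIS3L2 stood at 3.23 FPKM (2.31 to 4.15) in shDIS3L2 against 7.61 (6.70 to 8.53) in control. HNRNPU stood at 33.5 (31.8 to 35.2) in shHNRNPU against 178 (172 to 184) in control. Each target was above control in the other knockdown, with intervals apart. There DIS3L2 was at 11.2 FPKM (10.04 to 12.4) in shHNRNPU, and HNRNPU at 232 (224 to 241) in shDIS3L2. The locus of each target carried a further name. Depth implied by the single-exon members KCNQ1OT1 and LINC00657 was 19.2 to 19.4 M fragments (M, mega) in shDIS3L2, 19.3 to 21.1 M in shHNRNPU and 24.1 to 24.2 M in control. Of 8 hepatocyte markers, 7, 8 and 8 reached 1 FPKM in shDIS3L2, shHNRNPU and control, with summed levels of 3479, 7961 and 13652 FPKM. Most of each sum was SERPINA1, at 2865, 6710 and 11439 FPKM. FGB, a fibrinogen gene, was the only marker of the 8 higher in shDIS3L2 than in control, at 17.9, 1.93 and 6.21 FPKM. The others lay below control there, with intervals apart. Among them ALB, which encodes albumin, was at 0.856, 5.21 and 11.8 FPKM, and APOA1 at 18.9, 184 and 311 FPKM. In shHNRNPU all 8 were below control, with overlapping intervals for AHSG and TTR. FGA, also of fibrinogen, was lowest in shHNRNPU, at 298, 195 and 564 FPKM. The fibroblast, immune and endothelial markers that were found lay below 1 FPKM, except CD68, whose locus was merged under 10 names. LUM and CD3E were at 0 in each library. Of 3 endothelial markers, 2 were found (VWF and CDH5). The part of these marker differences in the results below was not tested. The control table held 0 mitochondrial rows, against 11 in shDIS3L2 and 10 in shHNRNPU, and its part in the scaling of FPKM was not tested.

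The members spanned more than 4 orders of magnitude, and DANCR and LINC00152 were the highest in each library. DANCR, a host transcript of a small nucleolar RNA that is known to restrain differentiation of progenitor cells, was at 125.7 FPKM (117 to 134) in shDIS3L2, 194 (183 to 205) in shHNRNPU and 195 (184 to 206) in control. Its control level ranked 704 of 16237 named loci above 0. LINC00152, reported as raised in many cancers, was at 202 FPKM (188 to 217) in shDIS3L2, 105 (95.3 to 114) in shHNRNPU and 103 (94.6 to 112) in control. DANCR lay above LINC00152 in shHNRNPU and in control, and below it in shDIS3L2, with intervals apart in each library.

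LINC00657 came next in shHNRNPU and control, at 18.01 FPKM (17.2 to 18.8) in shDIS3L2, 23.1 (22.2 to 23.99) in shHNRNPU and 17.5 (16.8 to 18.3) in control. TUG1, which RefSeq lists as protein coding although it is known as a noncoding RNA, was at 9.45 FPKM (8.32 to 10.6) in shDIS3L2, 7.15 (6.35 to 7.95) in shHNRNPU and 10.7 (9.77 to 11.7) in control. Below TUG1, the control intervals of NEAT1 and H19 overlapped, and the wide interval of MIR22HG overlapped those of NEAT1, H19 and MALAT1. NEAT1 and H19 both lay clear of MALAT1 in control, so only the place of MIR22HG and the order of NEAT1 and H19 were not resolved. In shHNRNPU no neighbour in the order from NEAT1 through TUG1, H19 and MIR22HG to MALAT1 was apart from the next, although the intervals of NEAT1 and TUG1 lay clear of that of MALAT1.

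MALAT1 stood low for an RNA known as one of the most abundant in many cells. It was at 4.01 FPKM (3.56 to 4.46) in shDIS3L2, 3.56 (3.14 to 3.98) in shHNRNPU and 1.84 (1.58 to 2.11) in control, where it ranked 9930 of 16237 named loci above 0. Both knockdown libraries were above control. KCNQ1OT1, an imprinted antisense RNA known to silence neighbouring genes on the paternal chromosome, was at 0.0164 FPKM (0.0103 to 0.0224) in shDIS3L2, 0.00394 (0.000953 to 0.00692) in shHNRNPU and 0.00586 (0.00261 to 0.00910) in control. Those intervals correspond to 29.03, 6.96 and 13.0 fragments over its 91667 bases. With a mean below 1 FPKM it did not enter the counts below, which left 8 members.

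**Figure D1:**
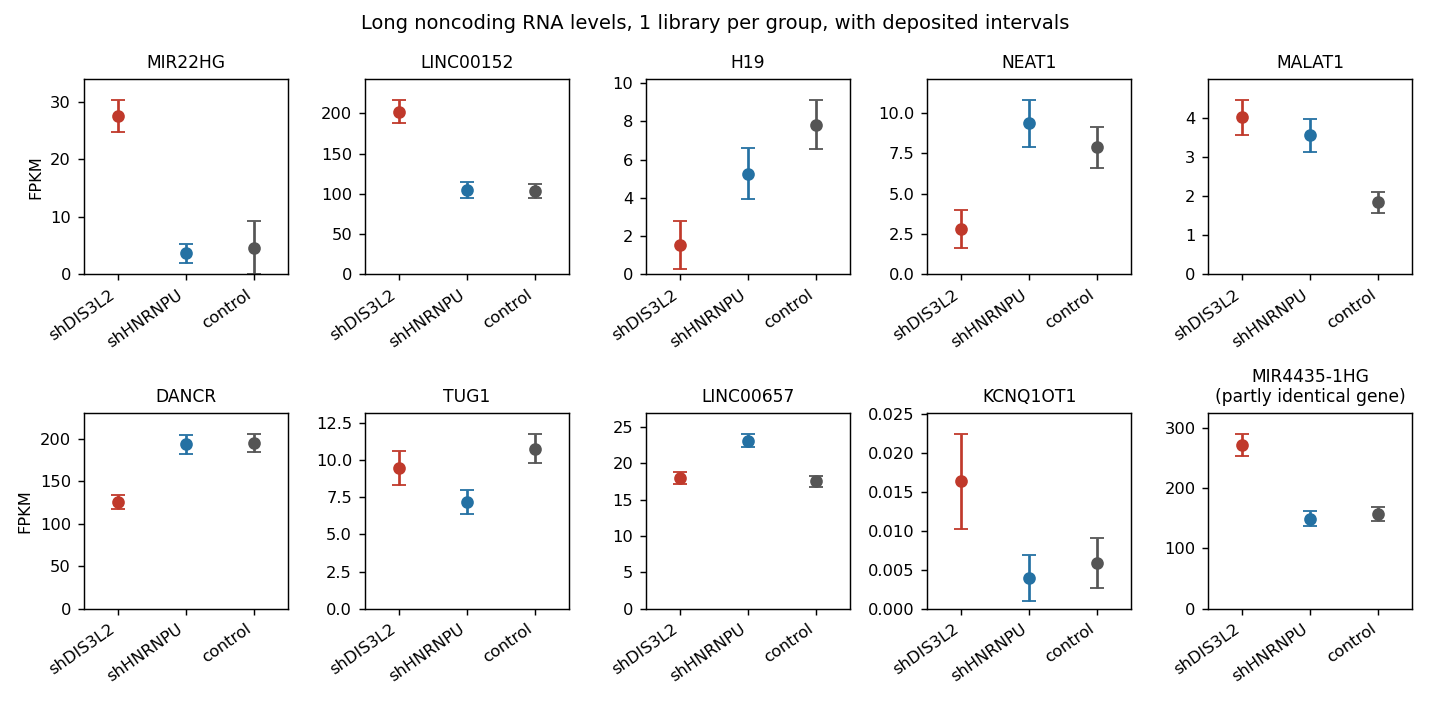
FPKM (vertical axes, each from 0) of the 9 members and of MIR4435-1HG in the shDIS3L2, shHNRNPU and control libraries; points are the deposited values and bars the deposited intervals. MIR22HG and LINC00152 stand highest in shDIS3L2 (27.5 and 202 FPKM), H19 and NEAT1 lowest there (1.54 and 2.81 FPKM), and MALAT1 lies below both knockdown libraries in control (1.84 FPKM).

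The shDIS3L2 library was compared with control to see which of these RNAs differ when the nuclease is reduced. MIR22HG was higher past the size rule, H19 and NEAT1 were lower, and LINC00657, TUG1, DANCR, MALAT1 and LINC00152 passed neither way. That is 1 of 8 higher and 2 of 8 lower, where 8.60% of 11098 named loci were higher and 6.68% lower. Intervals were apart for 6 of 8 members and for 57.6% of all loci. The median log2 ratio of the members was -0.07, against 0.10 for all loci. With fewer cells of a type and less RNA per cell, a level in bulk RNA moves the same way, and these cannot be told apart here.

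MIR22HG, the spliced host transcript of miR-22 known to respond to chemical stress, stood at 27.5 FPKM (24.8 to 30.3) in shDIS3L2, 3.65 (1.98 to 5.33) in shHNRNPU and 4.56 (0 to 9.22) in control. shDIS3L2 was the high library, and the intervals of shHNRNPU and control overlapped. Its log2 ratio in shDIS3L2 against control was 2.36, and 1.33 to 4.97 when the nearest and farthest interval ends were set against each other. Only 1.66% of all loci had a higher ratio. The control interval reached 0, with a width equal to that of 3.83 fragments, so the size of the difference is poorly bounded above.

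H19, an imprinted fetal RNA that is expressed from the maternal chromosome and is often re-expressed in liver cancer, stood at 1.54 FPKM (0.279 to 2.80) in shDIS3L2, 5.27 (3.95 to 6.59) in shHNRNPU and 7.83 (6.54 to 9.12) in control. The shDIS3L2 interval lay below the intervals of the other libraries, which overlapped each other. The log2 ratio in shDIS3L2 against control was -1.80 (-2.98 to -0.99 from the interval ends), lower than all but 2.65% of loci. The precision of the shDIS3L2 value equalled that of 5.97 fragments, against 147 in control.

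NEAT1 stood at 2.81 FPKM (1.62 to 3.9999) in shDIS3L2, 9.34 (7.89 to 10.8) in shHNRNPU and 7.86 (6.57 to 9.15) in control. Again shDIS3L2 was the low library and the other intervals overlapped. The log2 ratio was -1.22 (-1.95 to -0.60), with 4.85% of loci lower still. NEAT1 and MALAT1 are neighbours on chromosome 11 and differed in opposite directions: the interval of NEAT1 lay below control and that of MALAT1 above it, at a log2 ratio of 0.82 (0.55 to 1.08), which did not reach the size rule. With a pseudocount of 0.1 the ratio of MALAT1 was 1.08 and past the rule, and with a pseudocount of 5 those of H19 and NEAT1 were -0.97 and -0.72 and no longer past it.

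LINC00152 lay just short of the size rule at 0.96 (0.74 to 1.19), with 9.77% of loci higher. The partly identical MIR4435-1HG had 271 FPKM (253 to 289) in shDIS3L2, 149 (137 to 161) in shHNRNPU and 157 (145 to 168) in control, a log2 ratio of 0.79 in shDIS3L2 against control. Since reads of the shared stretches can be split between the genes, the value of either gene alone is uncertain. DANCR had a log2 ratio of -0.63 (-0.80 to -0.46), with its shDIS3L2 interval below control. LINC00657 (0.04) and TUG1 (-0.17) had overlapping intervals, and the sign of LINC00657 changed to -0.07 and -0.02 under median-of-ratios and upper-quartile scaling. KCNQ1OT1 had 29.03 fragment equivalents in shDIS3L2 against 13.0 in control, with intervals apart, at levels that the log2 ratio of FPKM plus 1 shrinks to 0.01.

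The shHNRNPU library was compared with control to ask the same for hnRNP U. No member passed the size rule: 0 of 8 were higher and 0 of 8 lower, where 7.45% and 6.78% of all loci were. Intervals were apart for 3 of 8 members, against 57.6% of all loci. The medians were 0.01 for the members and 0.12 for all loci. MALAT1 had the largest ratio, 0.68 (0.41 to 0.95), with 17.3% of loci higher. LINC00657 was next at 0.38 (0.27 to 0.49), with its shHNRNPU interval above control.

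TUG1 was the third member with intervals apart, at a log2 ratio of -0.53 (-0.79 to -0.27), its shHNRNPU interval below control. In shHNRNPU its neighbour MORC2 was assembled 126 bases into the TUG1 locus, which did not happen in the other libraries. H19 (-0.49), MIR22HG (-0.26), NEAT1 (0.22), LINC00152 (0.02) and DANCR (-0.01) had overlapping intervals. The start of NEAT1 was assembled 156 bases earlier in shHNRNPU than in the other libraries. The sign of LINC00152 changed to -0.14 and -0.05 under median-of-ratios and upper-quartile scaling.

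Setting shHNRNPU directly against shDIS3L2 does not use the control library. NEAT1 and H19 were higher past the size rule in shHNRNPU, MIR22HG was lower, and 5 members passed neither way. That is 2 of 8 higher and 1 of 8 lower, where 9.14% and 10.1% of all loci were. Intervals were apart for 7 of 8 members and for 59.6% of all loci, and MALAT1 was the exception (3.56 FPKM in shHNRNPU and 4.01 in shDIS3L2). The comparison shares the shDIS3L2 library with the comparison above, so it is no second measurement of that library.

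NEAT1 had a log2 ratio of 1.44 (0.83 to 2.17), H19 of 1.30 (0.38 to 2.57) and MIR22HG of -2.62 (-3.40 to -2.03). Of all loci, 1.78% were lower than MIR22HG and 4.36% higher than NEAT1. LINC00152 again lay just short of the rule, at -0.94 (-1.18 to -0.71), beside -0.86 for MIR4435-1HG. DANCR (0.62) and LINC00657 (0.34) were higher in shHNRNPU with intervals apart, and TUG1 (-0.36) lower. The medians were 0.10 for the members and 0.02 for all loci.

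**Figure D2:**
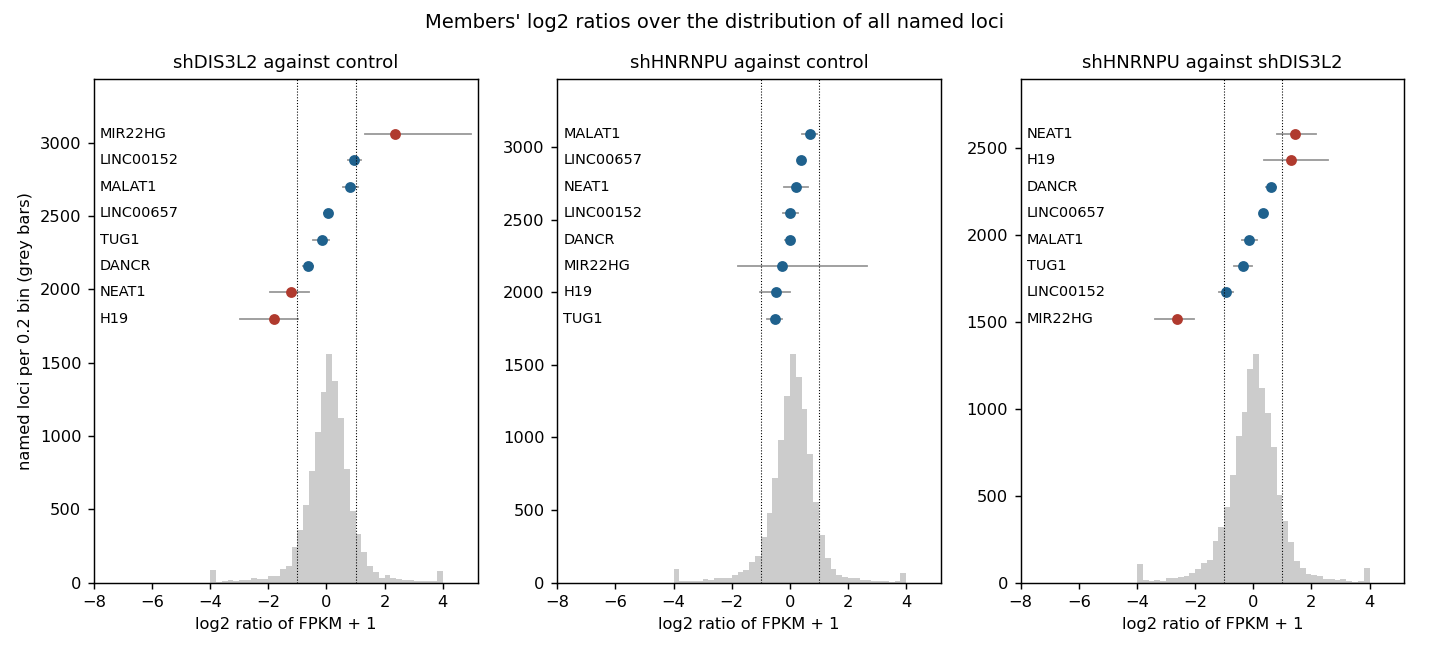
Log2 ratios of FPKM plus 1 (horizontal axes) for the 8 members with a mean of at least 1 FPKM, in 3 comparisons, with lines spanning the ratios of opposite interval ends; grey bars count all 11098 named loci per bin of 0.2, with values beyond 4 in the end bins, and dotted lines mark -1 and 1. Red points are past the size rule: MIR22HG (2.36), NEAT1 (-1.22) and H19 (-1.80) in shDIS3L2 against control, 0 members in shHNRNPU against control, and the same 3 members with opposite signs in shHNRNPU against shDIS3L2.

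The genomic surroundings of the members were then read from the same tables (hg19). H19 lies on chromosome 11 at 2016406 to 2022700, 127641 bases from the merged locus of IGF2, INS and INS-IGF2, its imprinted partner that encodes insulin-like growth factor 2. That locus stood at 5.18 FPKM (4.04 to 6.32) in shDIS3L2, 0.568 (0 to 1.24) in shHNRNPU and 0.406 (0 to 1.20) in control. It was thus high in the library in which H19 was low, with a log2 ratio of 2.14 in shDIS3L2 against control. Its mean reached 1 FPKM only through shDIS3L2. On the other side of H19, MRPL23, a mitochondrial ribosomal protein gene, had a log2 ratio of -0.22.

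NEAT1 (65190245 to 65213011) and MALAT1 (65265233 to 65273940) flank AP000769.1 on chromosome 11, whose log2 ratio was -0.35 in shDIS3L2 and 0.53 in shHNRNPU, each against control. FRMD8, before NEAT1, had log2 ratios of 0.56 and 0.60. Neither of these neighbours passed the size rule in either comparison. MIR22HG (chromosome 17, 1614805 to 1620468) overlapped 652 bases of WDR81, which stood at 20.7 FPKM in shDIS3L2, 25.04 in shHNRNPU and 28.05 in control, lowest in the library in which MIR22HG was highest. The kit is not described as stranded, so reads in that overlap may not have been told apart. The next expressed gene beyond WDR81, SERPINF2, which encodes alpha-2-antiplasmin made by hepatocytes, was lower in both knockdowns, at 56.4 FPKM in shDIS3L2, 102 in shHNRNPU and 504 in control.

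LINC00657 (chromosome 20, 34633544 to 34638882) lies 40543 bases from EPB41L1, which was at 4.64 FPKM in shDIS3L2, 12.5 in shHNRNPU and 8.999 in control. EPB41L1 was higher past the size rule in shHNRNPU against shDIS3L2 (1.26) and short of it against control. TUG1 (chromosome 22, 31366663 to 31375381) lies 2378 bases from MORC2, whose log2 ratios against control were -0.03 in shDIS3L2 and 0.02 in shHNRNPU. DANCR is on chromosome 4 at 53578597 to 53586518, and LINC00152 on chromosome 2 at 87754887 to 87906324. Their nearest expressed neighbours had log2 ratios between -0.32 and 0.43 against control in either knockdown. KCNQ1OT1 (chromosome 11, 2629558 to 2721224) lies wholly within KCNQ1, a potassium channel gene, which was listed at 0 in shDIS3L2 and stood at 0.0151 FPKM in shHNRNPU and 0.0984 in control.

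Partner genes were read from lists, whose counts stand beside the shares of all loci past the size rule: 8.60% higher and 6.68% lower in shDIS3L2 against control, 7.45% and 6.78% in shHNRNPU against control, and 9.14% and 10.1% in shHNRNPU against shDIS3L2. Genes listed at 0 were left out of the list calls, but such loci were kept in these shares. With loci listed at 0 left out, the shares were 7.25% and 4.96%, 6.32% and 5.02%, and 7.75% and 8.47%, in the same order. The lists are short, and counts this small were not tested and show nothing particular to a list. Of 12 paraspeckle proteins, 0 passed the size rule in any of the 3 comparisons. HNRNPH3 lay just short of it, at 146 FPKM (139 to 152) in shHNRNPU against 75.4 (71.4 to 79.5) in control. Its log2 ratios in shHNRNPU were 0.94 against control and 0.98 against shDIS3L2. SMARCA4 lay on the other side, at -0.62 and -0.93. NONO, a core paraspeckle protein whose locus carried a further name, was at 246 FPKM (236 to 256) in shDIS3L2, 353 (339 to 367) in shHNRNPU and 264 (254 to 274) in control. SFPQ, its partner, was at 106 (100.4 to 111) in shDIS3L2, 66.9 (63.4 to 70.4) in shHNRNPU and 81.2 (77.1 to 85.2) in control. The median log2 ratios of the list against control were 0.17 in shDIS3L2 and 0.06 in shHNRNPU, beside 0.10 and 0.12 for all loci.

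Of 14 nuclear speckle proteins, THRAP3 was higher (1.08) and RBM25 lower (-1.09) in shDIS3L2 against control, and 11 passed neither way. SON was listed at 0 in shDIS3L2, against 25.7 FPKM in control. Named loci listed at 0 in 1 library, with at least 5 FPKM in both others, numbered 71 in shDIS3L2, 80 in shHNRNPU and 42 in control. The 0 of SON is therefore not read here as loss of its RNA. In shHNRNPU against control SRSF5, a splicing factor, was lower (-1.06) and 13 passed neither way. This list had median log2 ratios against control of 0.12 in shDIS3L2 and -0.03 in shHNRNPU, beside 0.10 and 0.12 for all loci. In shHNRNPU against shDIS3L2 its median was -0.62, beside 0.02 for all loci, a difference that was not tested. SON was left out of the medians that use shDIS3L2. Of 11 RNase P subunits and ELAC2, 0 passed in shDIS3L2 and POP4 was lower in shHNRNPU, at 28.9 FPKM against 74.6 in control (-1.34). Of 7 Pumilio proteins and NORAD partners, 0 passed in shDIS3L2, and PUM2 (13.9 against 6.20 FPKM in control, 1.05) and the topoisomerase TOP1 (43.8 against 21.02 FPKM, 1.03) were higher in shHNRNPU. The assembled bounds of RBM25, POP4 and PUM2 differed between libraries, as did those of SUZ12 and UCA1 below, which makes their values less certain.

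Of 11 genes of the imprinted region around H19 and KCNQ1OT1, 6 had a mean of at least 1 FPKM. Of these 6, IGF2 and PHLDA2 were higher in shDIS3L2 against control, PHLDA2 was higher in shHNRNPU, and the others passed neither way. IGF2 reached that mean only through shDIS3L2, the library in which it was high, so its place in these counts rests on that value. PHLDA2, a placental growth inhibitor expressed from the maternal chromosome, stood at 113 FPKM (108 to 119) in shDIS3L2, 94.5 (89.5 to 99.5) in shHNRNPU and 29.6 (26.97 to 32.1) in control. Its log2 ratios against control were 1.91 and 1.64. Of 8 genes of the Polycomb complex PRC2 and CTCF, SUZ12 was higher in shDIS3L2, at 13.7 FPKM against 5.51 in control (1.17), 7 passed neither way, and 0 passed in shHNRNPU. Of 6 measured genes of miRNA processing, DROSHA, which cuts miRNAs from their host transcripts, was higher in shDIS3L2, at 38.4 FPKM (33.6 to 43.1) against 10.2 (8.67 to 11.7) in control. Its value in shHNRNPU was 8.65 (6.91 to 10.4), and 0 of 6 passed there. In shHNRNPU against shDIS3L2, IGF2 (-1.98), DROSHA (-2.03), SRSF5 (-1.57) and THRAP3 (-1.02) were lower and RBM25 (1.15) higher, with SON listed at 0 in shDIS3L2.

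**Figure D3:**
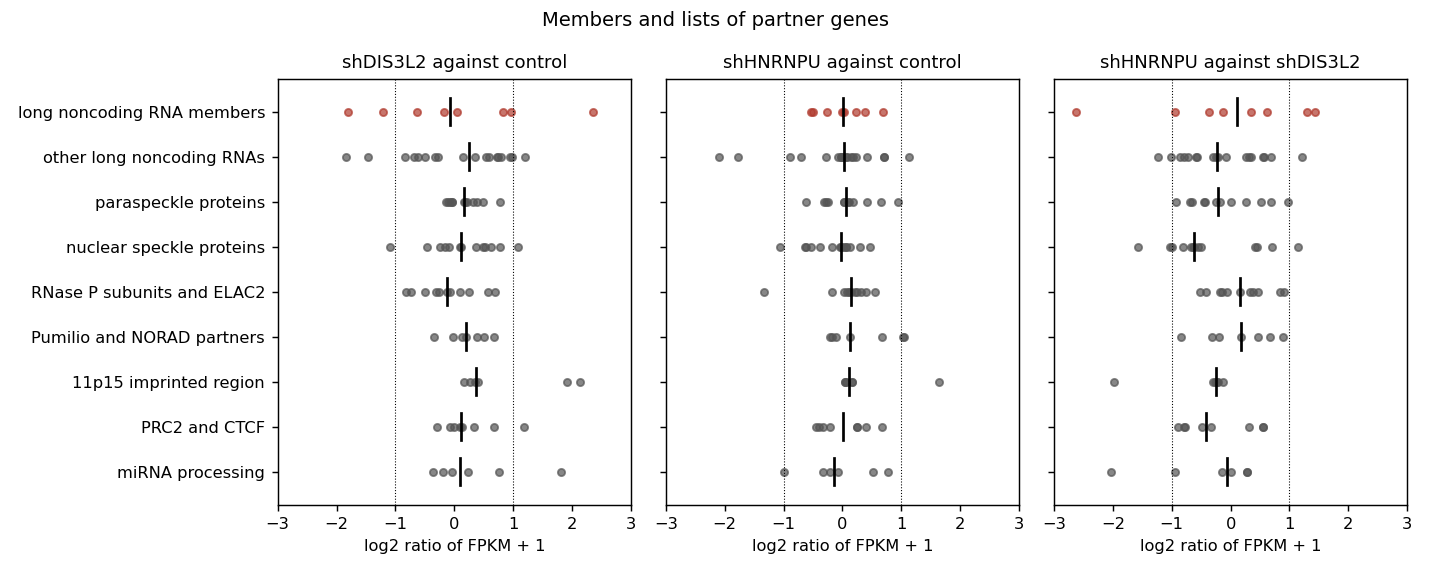
Log2 ratios of FPKM plus 1 (horizontal axes) of the 8 members (red) and of the measured genes of 8 lists (grey) in 3 comparisons; black bars are medians, dotted lines mark -1 and 1, and SON is not drawn where it was listed at 0. The paraspeckle proteins stay between -1 and 1 in each panel, while IGF2 (2.14) and DROSHA (1.82) lie to the right in shDIS3L2 against control.

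Other long noncoding RNAs served as a further list, with 18 of 29 at a mean of at least 1 FPKM. In shDIS3L2 against control 1 was higher, 2 lower and 15 neither, close to the shares of all loci (8.60% and 6.68%), with a median log2 ratio of 0.25, beside 0.10 for all loci. The lower ones were HULC, a liver cancer RNA, at 1.11 FPKM (0.271 to 1.95) against 6.52 (4.71 to 8.33) in control, and UCA1, known from bladder cancer, at 421 (406 to 436) against 1168 (1118 to 1217). MIAT, in a locus merged with a further name, was the higher one, at 6.68 (4.75 to 8.62) against 2.33 (1.07 to 3.59). In shHNRNPU against control HULC, at 0.767 FPKM, and UCA1, at 343, were lower as well, 1 was higher and 15 neither, where 7.45% and 6.78% of all loci were, with a median of 0.02, beside 0.12 for all loci. The comparisons share the control library, and HULC reached a mean of 1 FPKM only through its value there, where it was high.

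For the 3 members past the size rule against control, the 2 loci with the nearest pair of log2 ratios (shDIS3L2 and shHNRNPU, each against control) were taken among 6408 loci with a single name, a mean of at least 5 FPKM and a value above 0 in each library. These were F2 (-1.75 and -0.57), which encodes prothrombin, and JADE2 (-1.77 and -0.40) for H19, TRAM1 (-1.16 and 0.23) and HAUS5 (-1.27 and 0.26) for NEAT1, and IL18 (2.34 and -0.11) and KLHL18 (2.48 and -0.13) for MIR22HG. The likeness rests on 3 libraries and is a description only.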

How the data were processed

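The deposited values were FPKM per gene, each with its status and the bounds of an interval, per the file headers. FPKM scale a fragment count to transcript length and library depth. Per the submitters' processing notes, the tools were TopHat2 2.0.12 and Cufflinks 2.2.1, on build hg19. Annotation release, normalization options and RNA selection were not given in the sources used here. Per the identifiers in the deposited tables, transcripts were assembled in each library separately. Bounds were taken as the 95% interval, 2 SDs to either side.

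Named loci were matched across the 3 libraries by their full name, which left 51850, of which 11098 had a mean of at least 1 FPKM. For a name with several loci, the locus with the highest mean FPKM was used. Log2 ratios used FPKM plus a pseudocount of 1. A locus was past the size rule when that ratio reached 1 in either direction, both intervals were apart and both entries had the status OK. No test was run, since each group had 1 library.

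Fragment equivalents were computed as the number of fragments whose counting error alone would give the deposited interval. Starts were moved by 1 base to give 1-based coordinates. Promoter and miRNA sequences came from RefSeq (GRCh38.p14), and transcript sequences from GENCODE release 29. Other settings were pseudocounts of 0.1 and 5, 2 rescalings, summing over loci, a threshold of about 1.5-fold, no condition on intervals and other FPKM filters. Partner lists, named genes (list members past the rule, nearest expressed neighbours, and the 2 loci with the nearest pair of log2 ratios) and the members themselves were chosen with earlier results of these data known. Python 3.11.15, pandas 2.3.3 and numpy 2.4.6 were used.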

Additional observations from a re-analysis of the deposited data

How the results depend on the processing

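When the log2 ratios of the 8 members were recomputed under 5 other settings in 3 comparisons, 115 stayed on their side of the size rule, 1 newly passed it and 4 no longer did, and no member past the rule changed sign. With a pseudocount of 0.1, 2 members were higher in shDIS3L2 against control, with MALAT1 (1.08) beside MIR22HG. With a pseudocount of 5, 0 members were lower in shDIS3L2 against control and 0 higher in shHNRNPU against shDIS3L2, where NEAT1 (0.88) and H19 (0.65) no longer passed; a larger pseudocount shrinks the ratios of low levels by construction. At a threshold of about 1.5-fold, 3 members were higher and 3 lower in shDIS3L2 against control, 1 was higher and 0 lower in shHNRNPU against control, and 3 were higher and 2 lower in shHNRNPU against shDIS3L2. MIR22HG stayed past the rule in shDIS3L2 against control in every setting, from 1.77 to 2.57.

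Over all loci, the split of 954 higher and 741 lower in shDIS3L2 against control was 775 and 891 after median-of-ratios scaling, and that of 827 and 752 in shHNRNPU against control was 614 and 936. For shHNRNPU against shDIS3L2 the split was 1014 and 1122, and 931 and 1169 after that scaling. With a pseudocount of 5 these counts were 469 and 383, 341 and 439, and 462 and 637. At about 1.5-fold they were 2110 and 1559, 2153 and 1464, and 2162 and 2066. At a mean of at least 5 FPKM, 518 of 7715 loci were higher in shHNRNPU against control. No paired analysis was possible because each group had 1 library. Precision was lowest for H19 in shDIS3L2 and MIR22HG in control, with 5.97 and 3.83 fragment equivalents.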
